A study of Mus musculus with 16 samples.

Results

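Chemokines are small secreted proteins that attract leukocytes and other cells, and 6 of their genes are described here in cultures of mouse spermatogonial stem cells: Ccl5, Cxcl10, Ccl2, Ccl7, Cxcl1 and Cxcl12. They were chosen by name with earlier results of these data known, so their ranks and calls below are descriptions. Every probe set of the array annotated to them was used, which gave 10 of 45037 probe sets and 6 of 18193 named genes. Ccl5 and Cxcl10 were set apart as interferon-driven, and Ccl2, Ccl7, Cxcl1 and Cxcl12 served as the other members. RNA was measured on Affymetrix Mouse 430 2.0 arrays, 1 sample per array, in 4 groups of 4.

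Ccl5 attracts T cells and monocytes, and Cxcl10 attracts activated T cells through Cxcr3. Both genes are textbook targets of the interferon pathway. In it, sensors of double-stranded RNA such as Tlr3 and Ifih1 activate Irf3 and NF-kB, secreted interferon acts through its receptors, and a complex that includes Stat2 and Irf9 binds an element named the interferon-stimulated response element (ISRE). Ccl2 and Ccl7 attract monocytes through Ccr2, and Cxcl1 attracts neutrophils through Cxcr2; Ccl2 and Cxcl1 are known NF-kB targets. Cxcl12 is a largely constitutive chemokine that acts through Cxcr4 and Ackr3 and takes part in the homing of germ cells in the gonad.

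All cells were of the C57BL/6 background and came from Thy1+ germ cells, grown without serum in 20 ng/ml of GDNF, 150 ng/ml of its co-receptor GFRA1 and 1 ng/ml of FGF2. Every group, the control included, received short interfering RNA (siRNA) for 30 h: a negative control siRNA, or siRNA against Pou3f1, Bcl6b or Etv5, which encode transcription factors of the growth factor response of these cells. The knockdown was transient and partial. No untreated culture was analysed here, so an effect of siRNA that all groups share cannot be seen. The labels do not say whether the 4 samples of a group came from separate cultures, and p-values then measure the spread between these samples, which may be technical.

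The promoters of Cxcl10, Cxcl1 and Cxcl12 are shown because they differ in the letters that interferon and NF-kB factors are known to bind; of the 6 members these 3 had an entry in the RefSeq promoter table (GRCm38.p6). Each run is the 250 bases before the annotated start, 5′ to 3′ on the strand of the gene. Capitals mark matches, on either strand, to the ISRE core (GAAA, any 2 bases, then GAAA) or to the NF-kB consensus. They lie at chr5:92348890-92349139 on the minus strand for Cxcl10, at chr5:90890995-90891244 on the plus strand for Cxcl1 and at chr6:117168285-117168534 on the plus strand for Cxcl12.
Cxcl10: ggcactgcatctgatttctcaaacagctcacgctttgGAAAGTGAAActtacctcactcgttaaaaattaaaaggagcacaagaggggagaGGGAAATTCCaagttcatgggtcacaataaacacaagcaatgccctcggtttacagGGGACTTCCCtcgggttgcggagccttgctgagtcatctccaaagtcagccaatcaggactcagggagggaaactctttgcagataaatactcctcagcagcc
Cxcl1: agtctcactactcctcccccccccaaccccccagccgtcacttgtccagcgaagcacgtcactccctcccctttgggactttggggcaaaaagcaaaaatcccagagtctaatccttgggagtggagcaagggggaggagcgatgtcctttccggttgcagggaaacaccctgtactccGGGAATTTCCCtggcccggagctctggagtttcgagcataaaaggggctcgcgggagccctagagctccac
Cxcl12: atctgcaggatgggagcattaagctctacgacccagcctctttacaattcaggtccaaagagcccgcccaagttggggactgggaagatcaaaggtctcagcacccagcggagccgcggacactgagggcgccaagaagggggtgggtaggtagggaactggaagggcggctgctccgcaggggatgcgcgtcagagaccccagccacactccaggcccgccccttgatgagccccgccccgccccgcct

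The Cxcl10 promoter held an ISRE core, GAAAGTGAAA, from 213 to 204 bases before the start. It also held NF-kB matches at 159 to 150 bases (GGGAAATTCC) and at 103 to 94 bases (GGGACTTCCC). In the Cxcl1 promoter matches on both strands overlapped between 71 and 61 bases before the start, and no ISRE core was found. Neither motif occurred in the Cxcl12 window. Over all 32851 promoters of the table, 2.98% held the ISRE core and 3.9% the NF-kB consensus in the same 250 bases. A match describes letters and is not a measured binding site. Ccl2 and Ccl7 are neighbours with 0 protein-coding genes between them, and Ccl5 lies on the same chromosome 30 protein-coding genes from Ccl2.

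The deposited values are linear intensities, and differences are given on the scale of log2(intensity + 1), which understates changes of dim genes. Median intensity was between 15.6 and 17.1 on every array. Genes above the median of the array on 4 or more arrays were kept for testing; 11145 passed, all 6 members among them, and limma's test was called at an adjusted p under 0.05. Each siRNA lowered its target on all 4 arrays: the log2 difference was -0.68 for Pou3f1 (adjusted p 0.00103), -1.01 for Bcl6b (1.67e-04) and -1.49 for Etv5 (0.00115). Bcl6b knockdown replicate 1 stood apart from every other array. Its 3′ signal exceeded its 5′ signal by 3.08 for Actb, against 0.62 to 0.76 elsewhere (log2), and it correlated with them at 0.975 on average, against 0.996 to 0.997 for the rest. Results are therefore given with all 16 arrays and with the 15 arrays left without it. Leaving it out lowered the median residual SD from 0.134 to 0.0841, so that more genes passed in every comparison.

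Ccl5 was lowest in Pou3f1 knockdown and highest in Bcl6b knockdown. Its intensity in control was 90, 69.2, 73.8 and 71 in replicates 1 to 4. In Pou3f1 knockdown it was 24.4, 17, 14.4 and 19.6, near the array medians. Every Pou3f1 knockdown array lay below every control array. In Bcl6b knockdown it was 284, 138, 133 and 125, all above control, and replicate 1 was far above the other three. In Etv5 knockdown it was 75.2, 78.6, 69.7 and 89.2, all within the control range.

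On the log2 scale Ccl5 fell by 1.97 ± 0.22 in Pou3f1 knockdown (SE, n = 4 per group; adjusted p 1.23e-04), rank 1 of 11145 among the genes ordered from the largest fall on this scale. It rose in Bcl6b knockdown by 1.07 ± 0.22 (adjusted p 0.0126), or 2.1-fold, which was rank 7 from the largest rise. Without Bcl6b knockdown replicate 1 the rise was 0.79 ± 0.14 (adjusted p 9.71e-04) and the fall in Pou3f1 knockdown was the same size (adjusted p 1.77e-08). The Etv5 knockdown difference was 0.04, with a 95% interval from -0.42 to 0.50 (adjusted p 0.995). In such bulk RNA, fewer cells of a type and less RNA per cell cannot be told apart. The rise in Bcl6b knockdown did not pass when control and Bcl6b knockdown arrays alone were fitted (1.07, adjusted p 0.142).

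Cxcl10 was also lowest in Pou3f1 knockdown. In control its intensity was 1864, 2767, 2482 and 2020. In Pou3f1 knockdown it was 1433, 782, 1043 and 1063, with all 4 arrays below all 4 control arrays. In Bcl6b knockdown it was 1632, 4109, 3959 and 2920: replicate 1 was below every control array and the other three above every control array. In Etv5 knockdown it was 2083, 2751, 2455 and 2534, inside the control range on every array.

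On the same scale Cxcl10 fell by 1.09 ± 0.25 in Pou3f1 knockdown (SE, n = 4 per group; adjusted p 0.0275), or 2.14-fold, the third largest fall of 11145 genes. Without Bcl6b knockdown replicate 1 the same difference had an adjusted p of 1.28e-04. With all other arrays kept, the fall no longer passed without any single one of Pou3f1 knockdown replicates 2, 3 and 4 or control replicates 2, 3 and 4. It was then between -1.15 and -0.95, with adjusted p from 0.0531 to 0.106. In Bcl6b knockdown the difference was 0.40 (95% interval -0.13 to 0.92, adjusted p 0.372) over 4 arrays. It was 0.68 ± 0.17 (adjusted p 0.0131) over the 3 arrays without replicate 1, so the call there rests on leaving out that array. In Etv5 knockdown it was 0.12 (95% interval -0.41 to 0.64, adjusted p 0.967).

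**Figure D1:**
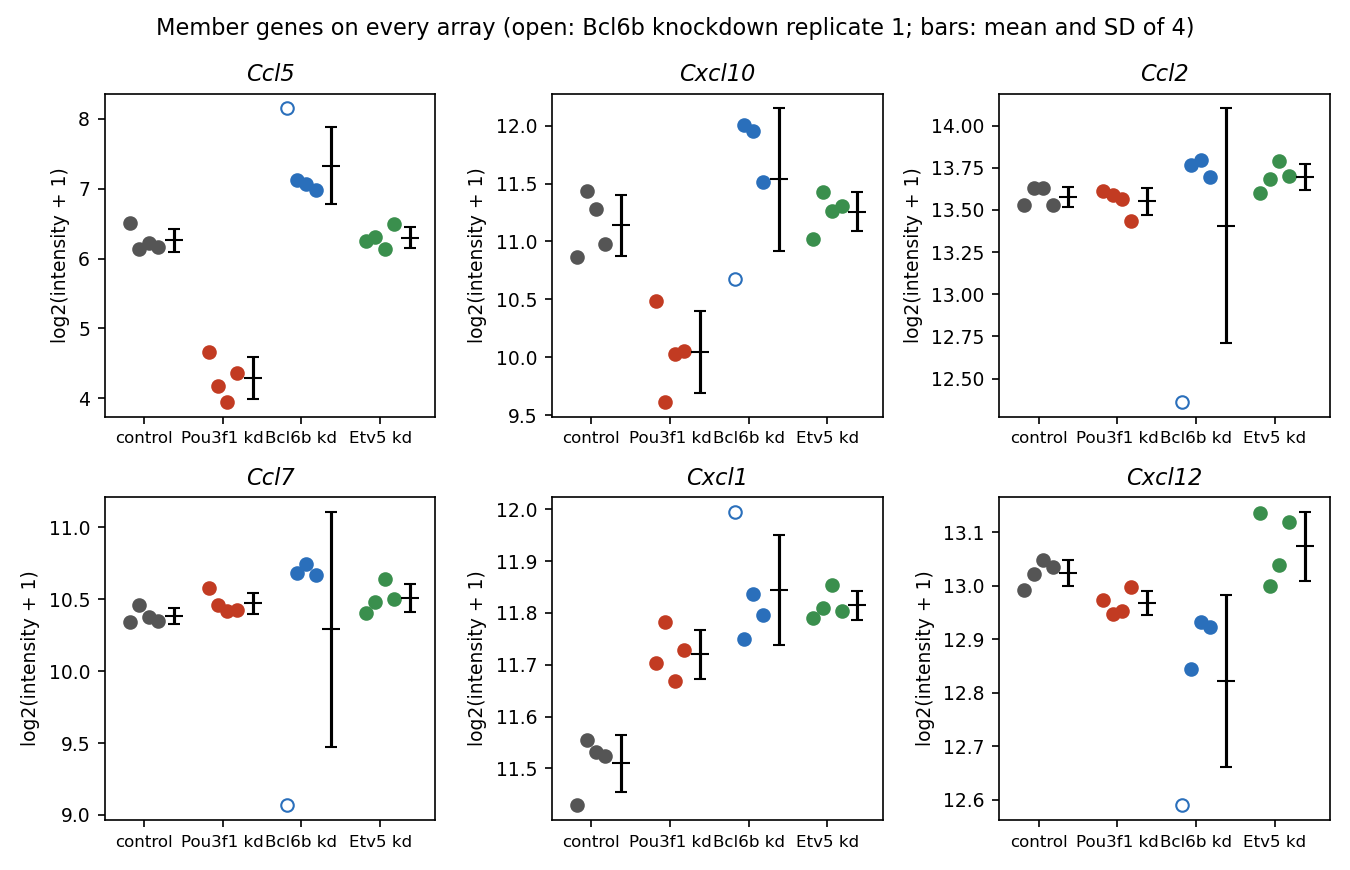
Log2(intensity + 1) of the 6 chemokine genes on each of 16 arrays, by group; points are arrays in replicate order, the open point is Bcl6b knockdown replicate 1, and bars are the mean and SD of 4 arrays (vertical axes differ between panels and do not start at 0). Ccl5 and Cxcl10 sit lowest in Pou3f1 knockdown, while the other 4 genes span far smaller ranges apart from the open point.

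Ccl2, the main monocyte attractant of the set, overlapped control in Pou3f1 and Etv5 knockdown and turned on 1 array in Bcl6b knockdown. Its intensity was 11826, 12663, 12680 and 11802 in control and 12544, 12340, 12133 and 11080 in Pou3f1 knockdown. These ranges overlapped, and the log2 difference was -0.03 with a 95% interval from -0.12 to 0.07 without the deviating array (adjusted p 0.74). In Bcl6b knockdown it was 5261, 13946, 14231 and 13290. Replicate 1 was less than any other array in the series and the other three exceeded control. The difference was -0.17 over 4 arrays (adjusted p 0.677) and 0.18 ± 0.05 over 3 (adjusted p 0.0244). In Etv5 knockdown the intensity was 12431, 13173, 14148 and 13326, overlapping control, with a difference of 0.12 (adjusted p 0.959; 0.108 without the deviating array).

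Ccl7, the neighbour of Ccl2 and a ligand of the same receptor, showed the same arrangement. Its intensity in control was 1298, 1409, 1325 and 1301, and in Bcl6b knockdown it was 535, 1644, 1710 and 1629. As with Ccl2, replicate 1 was lowest of all arrays and the remaining Bcl6b knockdown arrays lay above control. The difference turned from -0.09 (adjusted p 0.865) to 0.32 ± 0.05 (adjusted p 8.24e-04) when that array was left out. In Pou3f1 knockdown the intensity was 1529, 1406, 1367 and 1376, and in Etv5 knockdown it was 1356, 1428, 1596 and 1450. Both ranges overlapped control, with differences of 0.09 (95% interval -0.47 to 0.65, adjusted p 0.958) and 0.13 (-0.43 to 0.68, adjusted p 0.965).

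Cxcl1, the neutrophil attractant, was higher in all 3 knockdowns than in control. The probe set used had an intensity of 2755, 3007, 2958 and 2944 in control. It was 3332, 3520, 3255 and 3391 in Pou3f1 knockdown, 4082, 3444, 3654 and 3557 in Bcl6b knockdown and 3542, 3588, 3699 and 3575 in Etv5 knockdown. Every knockdown array exceeded every control array. The rise was 0.21 ± 0.05 in Pou3f1 knockdown (adjusted p 0.0411), 0.34 ± 0.05 in Bcl6b knockdown (adjusted p 0.00138) and 0.30 ± 0.05 in Etv5 knockdown (adjusted p 0.00378; SE, n = 4 per group). The rise in Pou3f1 knockdown kept its size but not its call in 4 other settings and when a single array of Pou3f1 knockdown, control or Etv5 knockdown, or Bcl6b knockdown replicate 3 or 4, was left out, with adjusted p up to 0.151. The rise in Bcl6b knockdown did not pass with only those groups fitted (0.34, adjusted p 0.071). The 3 knockdowns share the 4 control arrays, so 3 rises cannot be told apart from a low value in control. Of all tested genes, 68 (0.61%) were called higher in all 3.

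The other Cxcl1 probe sets gave the same signs. Neither passed in the fit of all probe sets and 16 arrays, in which the used probe set, 1457644_s_at, passed in Bcl6b and Etv5 (adjusted p 0.00389 and 0.0119) but not in Pou3f1 knockdown (0.109), and in which 0.449%, 1.28% and 0.415% of probe sets were called in Pou3f1, Bcl6b and Etv5 knockdown. Probe set 1419209_at differed by 0.25 in Pou3f1, 0.14 in Bcl6b and 0.33 in Etv5 knockdown. The dim probe set 1441855_x_at, at 42.7 to 44.4 in control, differed by 0.20, 0.32 and 0.27. Bcl6b knockdown replicate 1 was the highest of its group for the used probe set (4082) and the lowest for 1419209_at (2194 against 3102 to 3378), so probe sets of 1 gene went opposite ways on that array. Without it 1419209_at rose by 0.28 in Bcl6b knockdown (adjusted p 6.73e-04).

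Cxcl12, the ligand of Cxcr4, moved little. Its intensity was 8146, 8313, 8472 and 8387 in control, 8039, 7901, 7929 and 8177 in Pou3f1 knockdown and 9005, 8193, 8413 and 8893 in Etv5 knockdown, and these ranges overlapped control. In Bcl6b knockdown it was 6161, 7350, 7814 and 7766, below control on all 4 arrays. The difference there was -0.20 ± 0.06 (adjusted p 0.0888), and -0.12 ± 0.04 (adjusted p 0.0325) without replicate 1. The second probe set, 1417574_at, did not share it: its difference without that array was 0.00 with a 95% interval from -0.10 to 0.11. The third, 1439084_at, was between 4.59 and 5.04 on all arrays, below every array median, and measured nothing above the floor. In Pou3f1 and Etv5 knockdown Cxcl12 differed by -0.06 (95% interval -0.19 to 0.07) and 0.05 (-0.08 to 0.18).

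**Figure D2:**
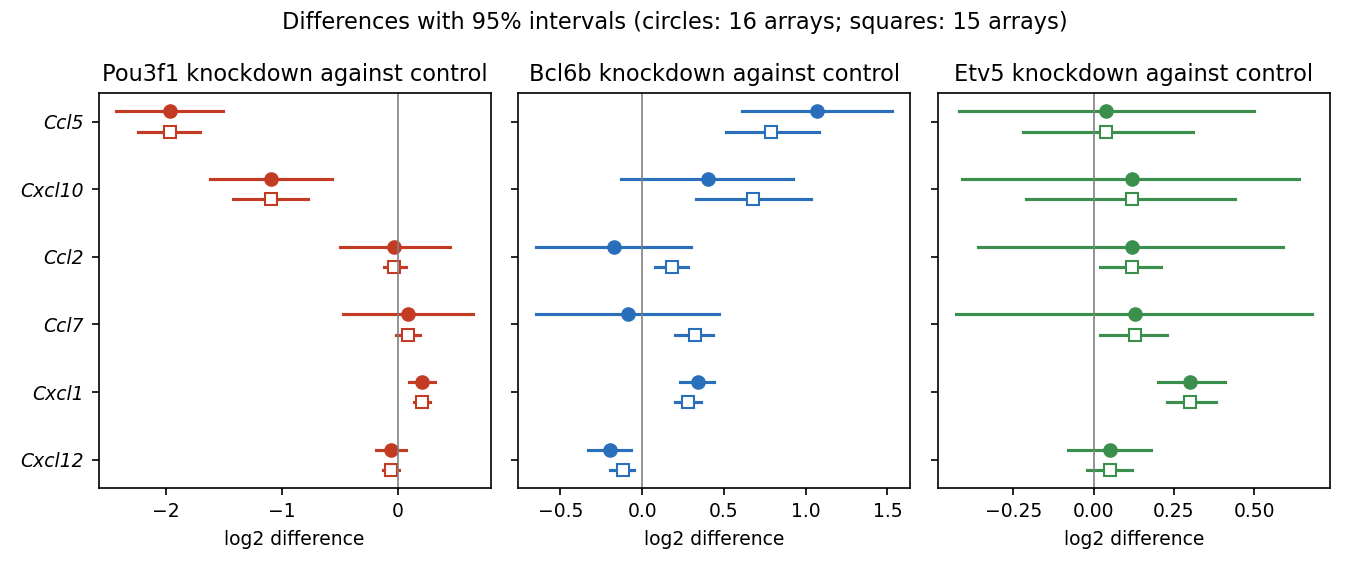
Log2 differences from control with 95% intervals for the 6 chemokine genes in each knockdown, from the fit of 16 arrays (filled circles) and of 15 arrays without Bcl6b knockdown replicate 1 (open squares); horizontal axes differ between panels. Ccl5 (-1.97) and Cxcl10 (-1.09) lie well below 0 in Pou3f1 knockdown. In Bcl6b knockdown the intervals of Ccl2 and Ccl7 include 0 over 16 arrays and lie above 0 when that array is left out.

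Counted together, 2 members fell and 1 rose in Pou3f1 knockdown, where 2.25% of all tested genes were called, 1.22% as lower and 1.03% as higher. In Bcl6b knockdown 2 rose, with 3.21% of tested genes called, 1.65% higher and 1.56% lower. In Etv5 knockdown 1 rose, with 2.09% called, 1.31% higher and 0.781% lower. Without Bcl6b knockdown replicate 1 the counts in Pou3f1 and Etv5 knockdown stayed at 3 and 1, while 11.4% and 9.52% of tested genes were called. In Bcl6b knockdown 5 members then rose and 1 fell, with 10.9% of tested genes called. Those shares were 4.3% higher and 7.08% lower in Pou3f1, 4.07% and 6.87% in Bcl6b and 4.58% and 4.94% in Etv5 knockdown. Groups did not overlap for 3 members in Pou3f1, 3 in Bcl6b and 1 in Etv5 knockdown, beside 18.1%, 14.7% and 17.3% of tested genes.

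The mean of the interferon-driven pair and the mean of the other members separated on the Pou3f1 and Bcl6b knockdown arrays. The mean of Ccl5 and Cxcl10, less the control mean, was between -1.81 and -1.12 on the Pou3f1 knockdown arrays (log2), while that of the other 4 was between 0.02 and 0.09. The pair thus moved on arrays on which the mean of its companions stayed near control. Of these, Cxcl1 was 0.16 to 0.27 above its control mean there. On Bcl6b knockdown replicates 2, 3 and 4 the mean of the pair was 0.54 to 0.87 higher and that of the other members 0.14 to 0.20 higher. Of those others, Ccl2, Ccl7 and Cxcl1 were at 0.12 to 0.36 and Cxcl12 at -0.18 to -0.09. Single genes came close on replicate 4, with Cxcl10 at 0.37 and Ccl7 and Cxcl1 at 0.29. On replicate 1 the pair itself split, with Ccl5 at 1.90 and Cxcl10 at -0.47. The mean of the other members was -0.62 there, with Cxcl1 at 0.49. On the Etv5 knockdown arrays the pair was between -0.06 and 0.20 and the others between 0.11 and 0.21, ranges that overlapped.

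**Figure D3:**
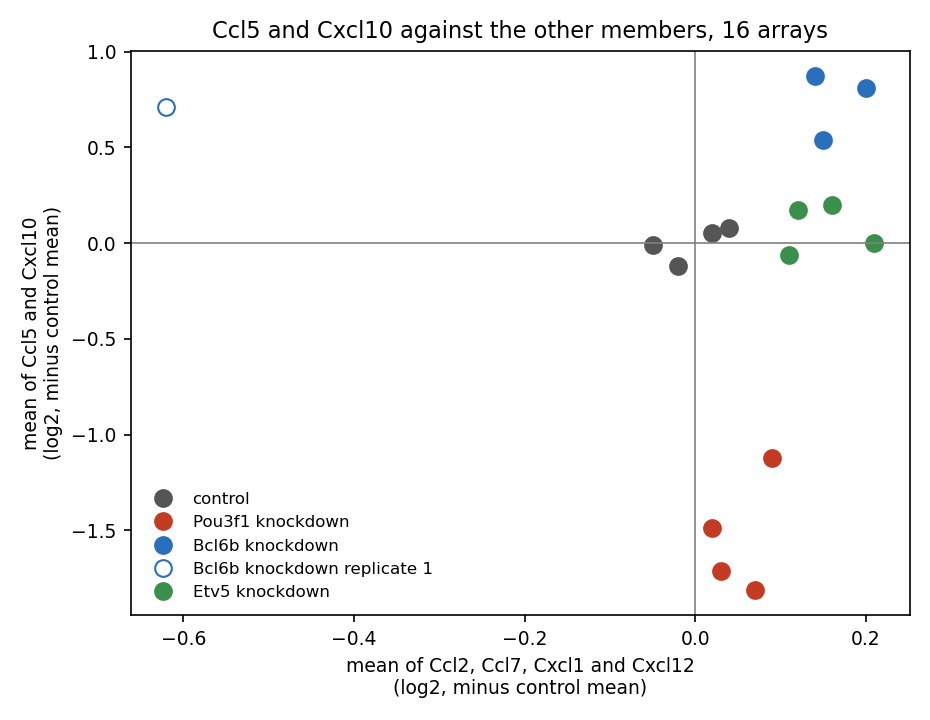
Mean log2 value of Ccl5 and Cxcl10 (vertical) against the mean of Ccl2, Ccl7, Cxcl1 and Cxcl12 (horizontal) on 16 arrays, each less its control mean; colours are groups and the open point is Bcl6b knockdown replicate 1. The Pou3f1 knockdown arrays lie at -1.81 to -1.12 on the vertical axis and at 0.02 to 0.09 on the horizontal one, and the open point stands alone at -0.62 on the horizontal axis.

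Compared directly, Ccl5 was higher in Bcl6b than in Pou3f1 knockdown by 3.04 ± 0.22 (SE, n = 4 per group; adjusted p 2.14e-06). It was higher in Etv5 than in Pou3f1 knockdown by 2.01 (adjusted p 1.24e-04). Ccl5 was near the array medians in Pou3f1 knockdown, so no fold is given for these. Cxcl10 was higher by 1.49 ± 0.25 in Bcl6b (adjusted p 0.00258) and by 1.21 ± 0.25 in Etv5 knockdown (adjusted p 0.0186), each against Pou3f1 knockdown. No other member was called in these comparisons over 16 arrays, in which 2.18% and 1.44% of tested genes were. Without the deviating array Ccl2 (0.20) and Ccl7 (0.23) were also called in the former, where 5.11% of tested genes then were. The Cxcl10 difference between Etv5 and Pou3f1 knockdown did not pass without Etv5 knockdown replicate 2 or 4 or Pou3f1 knockdown replicate 2, 3 or 4 (adjusted p 0.0545 to 0.0766), and that between Bcl6b and Pou3f1 knockdown did not with only those groups fitted (adjusted p 0.095). Between Etv5 and Bcl6b knockdown 1.49% of tested genes were called over 16 arrays, and 4.5% without the deviating array. Without that array Ccl5 differed by -0.75 (adjusted p 0.00272). Over 16 arrays it differed by -1.03 (adjusted p 0.0262). Leaving out any Etv5 knockdown array ended that call, with adjusted p from 0.0532 to 0.0875, as did fitting only those groups (0.332). Cxcl10 differed by -0.28 (95% interval -0.80 to 0.24, adjusted p 0.554). Without the deviating array this was -0.57 (-0.92 to -0.22, adjusted p 0.0608), with every Etv5 knockdown array below every Bcl6b knockdown array left, and with array weights it passed (-0.53, adjusted p 0.048). From lowest to highest, the order for both genes was Pou3f1 knockdown, control, Etv5 knockdown and Bcl6b knockdown, in which control and Etv5 knockdown did not differ beyond their spread. For Cxcl10 the Etv5 and Bcl6b knockdown arrays overlapped only through the deviating array, and the difference between these groups did not pass with or without it. Of the other members, Cxcl12 was higher in Etv5 than in Bcl6b knockdown by 0.25 (adjusted p 0.0543). It was called without the deviating array (0.17, adjusted p 0.00763), with array weights (0.19, 6.29e-04) and with median centring (0.30, 0.013). Leaving out Bcl6b knockdown replicate 3 or 4 also gave a call. Ccl7 differed by -0.19 without the deviating array (adjusted p 0.0504) and was called with array weights (-0.21, adjusted p 0.0395).

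Among the other CC ligands 5 of 15 with a value here were bright enough to be tested. Ccl9, an attractant of myeloid cells, rose in all 3 knockdowns, by 0.45 in Pou3f1 (adjusted p 2.51e-04), 0.45 in Bcl6b (2.79e-04) and 0.40 in Etv5 knockdown (8.75e-04), against the same control arrays. In Bcl6b knockdown the eosinophil attractant Ccl11 fell by 0.64 (adjusted p 0.0443), and Ccl27a rose by 0.34 (0.0496). The list median was -0.04, 0.24 and 0.08 in Pou3f1, Bcl6b and Etv5 knockdown, against -0.02, -0.01 and -0.03 over all tested genes.

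Of 14 other CXC, CX3C and XC ligands 6 were tested. Cxcl5, a neutrophil attractant that shares the receptor of Cxcl1, rose by 0.54 in Pou3f1 knockdown (adjusted p 0.0273). Over 16 arrays it differed by 0.26 and 0.41 in Bcl6b and Etv5 knockdown, without a call. In the fit without the deviating array it was called in both (adjusted p 1.03e-04 and 6.37e-05), and the Bcl6b difference of that fit is not given here. With limma on all 16 arrays no member of the list passed in Bcl6b or Etv5 knockdown, where 2 and 1 were higher at an unadjusted p under 0.05. The list median was -0.13, 0.17 and 0.11 in Pou3f1, Bcl6b and Etv5 knockdown. The share of all tested genes at that unadjusted p is not given here or below. Such counts therefore cannot be set against a background and are descriptions only. Cxcl11 and Cxcl9 are, like Cxcl10, interferon-inducible ligands of Cxcr3. Cxcl11 was dim at 33.7 ± 4.1 in control (SD, n = 4) and differed by -0.30 in Pou3f1 knockdown (adjusted p 0.458). Cxcl9 was at 7.02 ± 0.956 and was not tested.

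Of 21 chemokine receptor genes with a value here 4 were bright enough to be tested. Cxcr3, the Cxcl10 receptor, was at 4.49 in control, Ccr1, a receptor of Ccl5, at 8.32 and Cxcr2, the Cxcl1 receptor, at 5.33, all below the array medians and not among the 4. Receptors of other members passed the filter. Cxcr4 was at 152 ± 22.2 and Ackr3, an atypical Cxcl12 receptor, at 436 ± 28.4 in control (SD, n = 4), while Ccr2 at 16.9 ± 0.445 was close to the median. Cxcr4 fell in Etv5 knockdown by 0.82 (adjusted p 0.0459). In Pou3f1 and Bcl6b knockdown no receptor passed with limma, where 1 and 0 were higher at an unadjusted p under 0.05, and the list medians were 0.09, 0.13 and 0.05 in the Pou3f1, Bcl6b and Etv5 comparisons.

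**Figure D4:**
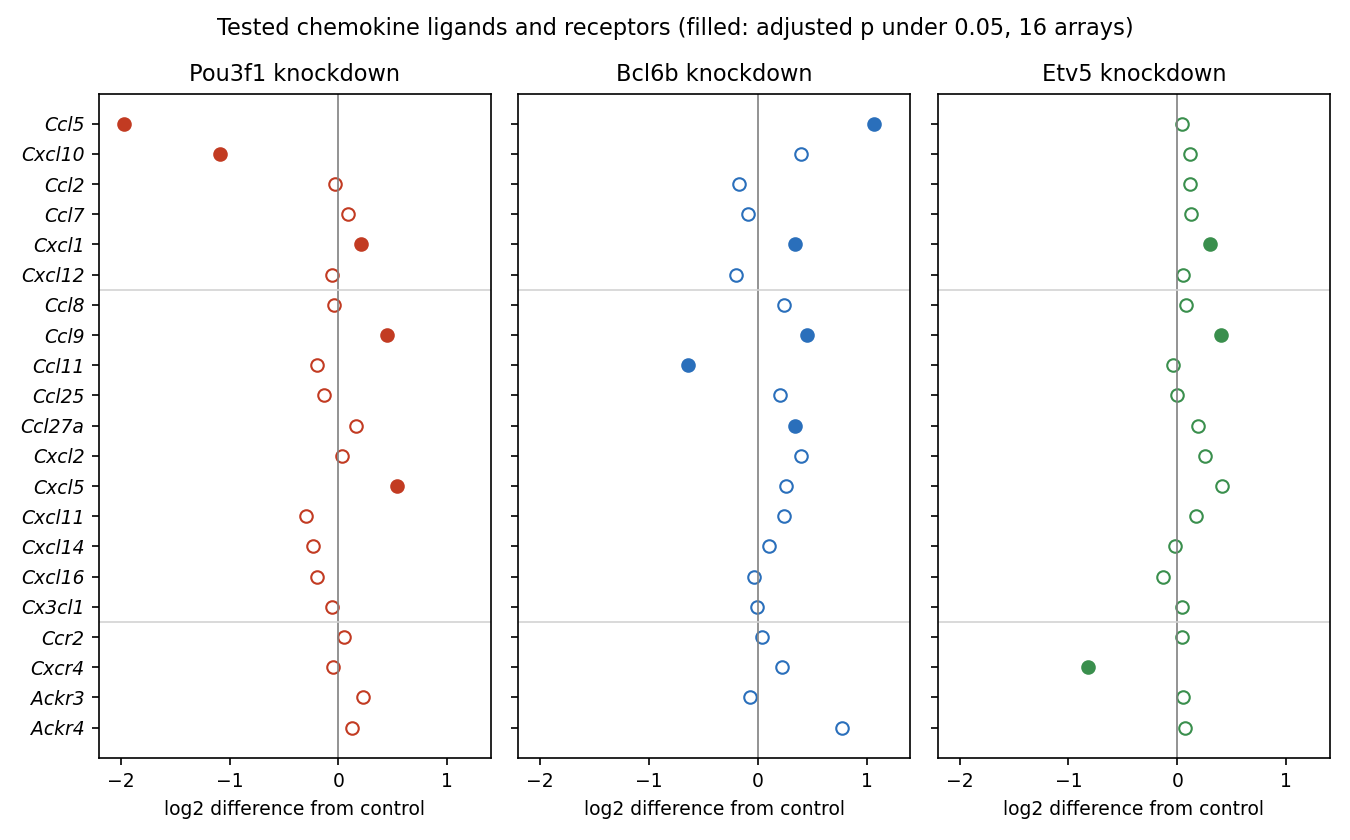
Log2 differences from control of all tested chemokine ligands and receptors in the 3 knockdowns, from 16 arrays; filled points had an adjusted p under 0.05, and lines separate the 6 members, the other ligands and the receptors. In Pou3f1 knockdown Ccl5 and Cxcl10 are the 2 filled points to the left of 0, and Ccl9 is filled to the right in every panel.

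Other interferon-inducible genes went the way of Ccl5. Of 35 tested interferon response genes 26 fell and 0 rose in Pou3f1 knockdown, where 1.22% of all tested genes fell. Without Bcl6b knockdown replicate 1, 33 fell, beside 7.08% of all tested genes. Their median difference was -0.57, against -0.02 over all tested genes. By smallest p these were the double-stranded RNA receptor gene Tlr3 (-0.93, adjusted p 8.56e-06), the GTPase gene Iigp1 (-0.83, 1.23e-04) and the oligoadenylate synthetase genes Oas2 (-0.76, 3.86e-04) and Oas1a (-1.08, 5.38e-04). In Bcl6b knockdown 8 rose and 0 fell (1.65% of tested genes rose), with a median of 0.32. Ifit2 rose by 0.52, Irf7 by 0.60, Oas1a by 0.69 and Oas2 by 0.46 (adjusted p 0.00106, 0.0121, 0.0142 and 0.0155). Without replicate 1, 17 rose and Ifi27 fell, beside 4.07% and 6.87% of all tested genes. In Etv5 knockdown 0 passed with limma, 5 were higher at an unadjusted p under 0.05, and the median was 0.10; Ifit2 (0.28) passed without the deviating array (adjusted p 0.012). The list was drawn up with earlier results of these data known, so these counts are a description.

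The genes that carry the interferon signal were mixed. Irf7, an interferon-induced factor, fell by 0.65 in Pou3f1 knockdown (adjusted p 0.00772), and the RNA sensor gene Ifih1 fell by 0.81 (0.00959) and rose by 0.70 in Bcl6b knockdown (0.0207). Irf1 at 1920 ± 81.8 and Irf9 at 1045 ± 45.1 in control (SD, n = 4) differed by -0.12 and -0.29 in Pou3f1 knockdown and were not called in any knockdown over 16 arrays. Stat2 at 1155 ± 110 differed by -0.40 (adjusted p 0.92); without the deviating array this passed (0.00222), as did Irf9 (0.0176). Irf3, the factor downstream of the sensors, was at 648 ± 11 and differed by -0.09 (adjusted p 0.791).

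The interferon genes and receptors gave 8 tested members of 12, and with limma on all 16 arrays none passed in any knockdown; at an unadjusted p under 0.05, 1 was lower in Pou3f1, 2 were higher and 2 lower in Bcl6b and 0 differed in Etv5 knockdown. Medians were -0.02, 0.00 and 0.01. Without the deviating array the receptor genes Ifnar2 in Pou3f1 and Ifngr2 in Bcl6b knockdown were called lower (adjusted p 0.0157 and 0.0129). Ifnb1 was at 5.07 and Ifng at 5.19 in control, below the array medians, so no difference in either could be measured. The receptor gene Ifnar1 was at 638 ± 43 and differed by -0.01, -0.07 and -0.10.

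Of 24 tested NF-kB response genes 1 fell in Pou3f1 knockdown (Csf1, -0.24, adjusted p 0.0104), 1 fell in Bcl6b knockdown (Vcam1, -0.41, 0.00258) and 1 rose in Etv5 knockdown (Saa3, 0.26, 0.0306), where 1.22% and 1.56% of all tested genes fell and 1.31% rose. Without the deviating array 1 rose and 2 fell in Pou3f1, 3 rose and 1 fell in Bcl6b and 2 rose and 1 fell in Etv5 knockdown. Saa3 was then the one that rose in Pou3f1, and Nfkbia, Nfkbiz and Tnfaip2 were those that rose in Bcl6b knockdown. Over all tested genes 4.3% then rose and 7.08% fell in Pou3f1, 4.07% and 6.87% in Bcl6b and 4.58% and 4.94% in Etv5 knockdown. Csf1 is a macrophage growth factor, Vcam1 an adhesion molecule and Saa3 an acute-phase protein. The medians were -0.04, 0.12 and 0.05. Rela, the main activating subunit, was at 1753 ± 48.8 in control and differed by -0.07, 0.03 and -0.04, with adjusted p of 0.735 or more; Nfkb1 has no value here.

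The genes whose values over the arrays were most like those of Ccl5 are known as interferon-inducible. Over 16 arrays these were Ifi35 (Pearson r = 0.969), Oas2 (0.968), Ifit1 (0.963), Rsad2 (0.962) and Gbp6 (0.954), and over 15 arrays Oas2 (0.975), Ifi35 (0.965), Rtp4 (0.963), Herc6 (0.961) and Oasl2 (0.961). For Cxcl10 they were Oasl2 (0.959), Ifi202b (0.955), Trim25 (0.955), Rtp4 (0.953) and Usp18 (0.950), and over 15 arrays Trim25 (0.985), Ifi47 (0.974), Ifit1 (0.970), Usp18 (0.970) and Ifit3 (0.966). Ccl5 and Cxcl10 themselves correlated at 0.757 over 16 arrays and at 0.938 over 15. Ccl5 correlated at -0.296 with Ccl2 over 16 arrays and at 0.615 over 15, so that value turned on the deviating array. Over 15 arrays Ccl5 correlated at 0.382 with Ccl7, 0.037 with Cxcl1 and 0.018 with Cxcl12. For Cxcl10 these were 0.732 with Ccl2, 0.524 with Ccl7, 0.130 with Cxcl1 and -0.072 with Cxcl12. All these points share the 4 groups and the same arrays, and the correlations are given as descriptions. In Pou3f1 knockdown the antiviral gene Rsad2 fell by 1.57, Usp18 by 0.96 and Ifit1 by 0.90. They were picked for likeness to Ccl5 or Cxcl10 on these same arrays, so their falls follow from the choice and are a description only.

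Of these 13 genes 9 had a promoter entry, and 3 of the 9, Ifit1, Ifit3 and Rsad2, held the ISRE core in the 250 bases before their start, on the strand opposite to the one printed. The other 6 (Ifi35, Oasl2, Ifi202b, Trim25, Herc6 and Ifi47) held none there. Of 29 interferon response genes with a promoter entry 12 held it. For comparison with the Cxcl10 promoter, 30 bases around a match are printed for each, with the match in capitals. The matches lie at chr19:34640785-34640794 for Ifit1, chr19:34583373-34583382 for Ifit3 (both plus strand) and chr12:26456563-26456572 for Rsad2 (minus strand).
Ifit1: caggcttcagTTTCACTTTCcagtctcagt
Ifit3: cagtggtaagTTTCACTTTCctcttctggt
Rsad2: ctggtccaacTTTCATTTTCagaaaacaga

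Markers of the cells in the cultures are given beside these results. The germ cell genes Ddx4 (6896 ± 178) and Dazl (16637 ± 165, SD, n = 4) were bright in control, and 16 of 18 germ cell markers were tested; the GDNF receptor gene Ret rose by 0.38 in Pou3f1 and by 0.35 in Bcl6b knockdown, and no other of them passed there over 16 arrays. In Etv5 knockdown 0 passed with limma, where 3 were higher and 2 lower at an unadjusted p under 0.05. Without the deviating array Zbtb16 was also called higher in Pou3f1 knockdown, and Zbtb16 and Uchl1 higher and Sall4 lower in Etv5 knockdown. Of 19 tested fibroblast markers 1 rose in each knockdown, and each time this was Vim, which encodes vimentin, by 0.35, 0.29 and 0.33 in Pou3f1, Bcl6b and Etv5 knockdown, where 1.03%, 1.65% and 1.31% of all tested genes rose. Without the deviating array 2 were called higher and 4 lower in Pou3f1, 2 and 2 in Bcl6b and 4 and 0 in Etv5 knockdown. The collagen gene Col1a1 and the matrix genes Fn1, Thbs1 and Sparc were the 4 lower in Pou3f1 knockdown. Over all tested genes 4.3% were then called higher and 7.08% lower in Pou3f1, 4.07% and 6.87% in Bcl6b and 4.58% and 4.94% in Etv5 knockdown. The summed intensity of the fibroblast markers was 206958 to 208293 in control, 208924 to 214508 in Pou3f1, 205527 to 216380 in Bcl6b and 214768 to 224684 in Etv5 knockdown. For the 16 tested germ cell markers it was 50726 to 51743 in control, so fibroblast markers were bright as well. Sums over different genes do not measure shares of cells. Which cells of the culture held the chemokine RNA was not measured.

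Of 9 tested macrophage and leukocyte markers 0 passed in Pou3f1 or Bcl6b knockdown with limma, where 1 was higher at an unadjusted p under 0.05 in each, and 1 fell in Etv5 knockdown (Mrc1, -1.31, adjusted p 0.00189). Lyz2 (-1.57) also passed there without the deviating array (adjusted p 0.00893). The summed intensity of the list was 1067 to 1195 in control, 1128 to 1294 in Pou3f1 and 1087 to 1150 in Etv5 knockdown. It was 1114 to 1179 in Bcl6b knockdown, apart from 1856 in replicate 1, the array with the raised 3′ signal. On that array the sums of chemokine receptors (1083), endothelial markers (546) and NF-kB response genes (63391) were also the highest of all arrays. Its sums of germ cell (44951), fibroblast (205527), Sertoli cell (272) and Leydig and peritubular markers (3822) were the lowest. Ptprc, the pan-leukocyte gene, was at 67.9 ± 9.41 in control (SD, n = 4), and the macrophage gene Adgre1 and the T cell gene Cd3e were at 5.32 and 3.75, below the array medians.

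Of 10 endothelial markers 3 were tested, and Plvap, of fenestrated vessels (-1.30, adjusted p 0.0014), and Ramp2, a receptor partner (-1.09, 6.29e-04), fell in Etv5 knockdown, as Cxcr4 and Mrc1 did. In that comparison 0.781% of all tested genes fell over 16 arrays. The summed intensity of the list was 193 to 298 in Etv5 knockdown against 385 to 424 in control, and the 4 Etv5 knockdown arrays lay below every control array. It was 345 to 417 in Pou3f1 and 409 to 546 in Bcl6b knockdown, with 0 of the 3 called. The defining genes Pecam1, Cdh5 and Kdr were at 6.7, 4.98 and 3.83 in control, below the array medians. With limma on 16 arrays 0 of 1 tested Sertoli cell marker and 0 of 3 Leydig and peritubular markers passed in any knockdown; at an unadjusted p under 0.05, 1 of each was lower and 1 of the latter higher in Bcl6b knockdown. Over 15 arrays Hsd3b1 was called higher in Pou3f1 and Star lower in Bcl6b knockdown. The part of these cells, and of the leukocytes, in the chemokine and receptor differences was not tested.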

How the data were processed

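RNA of 16 samples, 4 per group, was hybridised to 1 array each. Each array's file holds 1 linear intensity per probe set, as deposited by the authors. Per the submitters' processing notes, the software was Partek 6.4 and Expression Console 1.1 with GCRMA and MAS5; their roles and the normalization between arrays are not given in the sources used here. Of 45037 probe sets other than controls, the platform annotation paired 34945 with 1 gene, 932 with several and 9160 with none; only the first kind was named. No pair of arrays was identical, and all were kept.

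Where a gene had several probe sets, the one brightest on average was used after log2(value + 1). One fit of the 4 groups without covariates was made with limma 3.58.1 in R 4.3.3 (lmFit, eBayes with an intensity trend). Tests were two-sided, and p was adjusted by Benjamini-Hochberg across the 11145 genes of each comparison. Single probe sets came from a fit of all probe sets. The fit was tested on simulated data. No label gives a batch. Replicate numbers recur in every group, but deviations of same-numbered samples correlated at -0.263 to 0.202 (5 of 24 pairs above 0.1), and other pairs at -0.285 to 0.201, so they were not treated as pairs.

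Other settings were quantile normalization, median centring, a pseudocount of 16, dim genes kept or filtered at a mean log2 of 5, probe sets averaged, array weights, no trend, only the groups compared, a replicate block, and leaving out single arrays. Named were the members, up to 4 called genes of each list by smallest p, the 5 genes most like Ccl5 and Cxcl10 by Pearson correlation (clone names left out), and a set of upstream and receptor genes; Cxcl9, Cxcl11, Ifnb1, Ifng, Ifnar1, Ifi27 the cell markers given with values and genes called only without Bcl6b knockdown replicate 1 were named beyond that rule after their values were seen. Members and lists were chosen with earlier results of these data known. Plots were made in matplotlib 3.10.9 under Python 3.11.15.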

Additional observations from a re-analysis of the deposited data

Results flagged for a closer look

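Of 40 sets of 4 arrays (10 probe sets in 4 groups) 6 held an array set apart from the other 3 by a gap that took up nearly the whole range of the set, beyond the 95% critical value of Dixon's test; chance flags about 1 in 20 such sets. In 4 of them the array was Bcl6b knockdown replicate 1. There Ccl5 was at 284 against 125 to 138 on the other Bcl6b knockdown arrays, Ccl2 at 5261 against 13290 to 14231, Ccl7 at 535 against 1629 to 1710, and Cxcl12 probe set 1417574_at at 953 against 1375 to 1390. The same probe set was at 1219 in Pou3f1 knockdown replicate 4, against 1368 to 1391 on the other arrays of that group. The dim Cxcl12 probe set 1439084_at was at 5.04 in control replicate 2, against 4.63 to 4.68, close to the floor of the signal.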

How the results depend on the processing

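The fall of Ccl5 in Pou3f1 knockdown kept its direction and call in all 10 other settings and with each of 16 arrays left out (-2.10 to -1.40). Leave-one-out values of Cxcl10 in Pou3f1 knockdown ran from -1.24 to -0.95, with the call lost for 6 arrays. In Bcl6b knockdown Ccl5 lost its call with only the groups compared (1.07, adjusted p 0.142), as did Cxcl1 (0.34, adjusted p 0.071), Cxcl10 gained one with array weights (0.57, adjusted p 0.0146), and its leave-one-out values ran from 0.24 to 0.68. Signs of small differences turned in these cases. With array weights, Ccl2 and Ccl7 were at 0.15 and 0.30 in Bcl6b knockdown against control, at 0.15 and 0.21 against Pou3f1 knockdown, and at -0.06 and -0.21 for Etv5 against Bcl6b knockdown; without Bcl6b knockdown replicate 1 these were 0.18 and 0.32, 0.20 and 0.23, and -0.06 and -0.19. Cxcl1 in Etv5 against Bcl6b knockdown was 0.02 with median centring, 0.04 as the mean over probe sets, 0.00 with array weights and 0.02 without that array. Over the arrays left out in turn, Ccl2 and Ccl7 ran from -0.30 and -0.24 in Bcl6b knockdown against control, from -0.28 and -0.33 against Pou3f1 knockdown, and up to 0.42 and 0.37 for Etv5 against Bcl6b knockdown. Ccl2 in Pou3f1 knockdown ran from -0.05 to 0.01, Ccl5 in Etv5 knockdown from -0.02 to 0.13 and Ccl7 in Etv5 against Pou3f1 knockdown from -0.01 to 0.07. The cause was not tested.

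With the replicate number as a block, Cxcl1 in Pou3f1 knockdown lost its call (0.21, adjusted p 0.0937), and the genes called fell from 2.25% to 1.75% in Pou3f1, from 3.21% to 2.49% in Bcl6b and from 2.09% to 1.59% in Etv5 knockdown. With only the groups compared these were 10.2%, 0.556% and 8.94%. Over all probe sets Cxcl10 in Pou3f1 knockdown did not pass (adjusted p 0.0944; 0.00178 without Bcl6b knockdown replicate 1). Genes near the floor, such as Ccl5 in Pou3f1 knockdown, have compressed differences, and 4 arrays per group limit the precision.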
